A study of Mus musculus with 6 samples.

Results

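The cytosolic ribosomal protein genes of the mouse were followed through 3 basophil-lineage populations sorted from bone marrow. Members were the protein-coding genes whose symbols follow the ribosomal protein pattern (Rpl or Rps with a number, plus Rplp0, Rplp1, Rplp2 and Rpsa), without pseudogene symbols and the ribosomal S6 kinases. There were 89 members among 24532 gene IDs in the tables. They comprised 46 large-subunit genes and 31 small-subunit genes, together called subunit genes here, 7 paralogues, 4 retrogenes, and Rps19bp1, which shares the symbol pattern but is not a subunit. The series holds 6 RNA-seq libraries from C57BL/6J mice, with 2 biological duplicates in each population. All 3 populations were depleted of lineage markers and of c-Kit. BaP, named basophil precursor in the labels, was CD34-positive and bound MAR1, an antibody against the IgE receptor FcεRIα. MAR1HI and MAR1INT lacked CD34, carried CD200R3, and bound MAR1 at a high or an intermediate level. The labels used here do not give the age of the mice or whether animals were pooled, and without that the p-values measure the spread between these libraries.

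A cytosolic ribosome is built from a small subunit, which reads the mRNA, and a large subunit, which joins amino acids. Most of its proteins are made in equal copy number, each usually from a single active gene, while the genome carries many silent processed copies. Their mRNAs begin with a run of pyrimidines after the cap, the 5′ terminal oligopyrimidine (TOP) motif, through which mTORC1 and its effector Larp1 set their translation. Myc and the growth rate of a cell raise their transcription, and blood progenitors are sensitive to a shortage of single ribosomal proteins, as in Diamond-Blackfan anaemia.

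Values are TPM, which scales each library to a fixed total per length of transcript, so a level can be compared between genes and a change is relative to the rest of the same library. The ratio of coverage to FPKM in each table corresponds to 4.75 to 5.28 gigabases aligned per library. The library MAR1HI replicate 2 stood apart: its median-of-ratios size factor was 1.38 against 0.918 to 0.996 in the other 5, so that a typical gene had a higher TPM there. Replication-dependent histone genes held 7.64% to 18.7% of TPM and small RNAs 2.998% to 7.25%. The 9 basophil markers summed to 17125 to 21994 TPM over BaP and MAR1HI and to 14362 and 11726 in MAR1INT, and none was under 1 TPM throughout. In MAR1INT against BaP, Cpa3, Fcer1a, Mcpt8 and Prss34 were called lower and Cd200r3, Gata2, Hdc and Il4 higher. Markers of other cells and of the cell cycle differed between the populations. The 8 cycling markers (such as Mki67 and Top2a) summed to 1701 and 1822 TPM in BaP, to 1904 and 2376 in MAR1HI, and to 341 and 241 in MAR1INT. The 7 eosinophil markers summed to 2120 and 1137 TPM in BaP against 81.2 to 228 in the other libraries, with Il5ra under 1 TPM in all. The 6 dendritic and class II markers summed to 968 and 339 TPM in BaP and 10.8 to 54.0 elsewhere. The 10 neutrophil markers summed to 6167 and 11055 TPM in BaP and 3501 to 4977 elsewhere, and the 9 progenitor markers to 284 and 269 in BaP, with 88.8 and 141 for MAR1HI and 48.8 and 28.8 for MAR1INT. The T and NK cell list of 6 summed to 33.5 to 384 TPM with Cd3g, Klrb1c and Ncr1 under 1 TPM in all, the monocyte and macrophage list of 8 to 88.2 to 333, the erythroid list of 8 to 625 to 2795, and the B and plasma cell list of 6 to 14.3 to 42.0. The part of these cell markers in the results on ribosomal protein genes was not tested. In sorted bulk samples, fewer cells of a type and less RNA per cell cannot be told apart.

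Ribosomal protein genes were among the most abundant transcripts of all 3 populations. Of the 100 gene IDs with the highest mean TPM, 49 were members, and 70 subunit genes were above 500 TPM in all 6 libraries. The 5 most abundant members by mean TPM were Rpl23a, at the exit of the peptide tunnel, with 12115 TPM, Rps23, in the decoding centre, with 6984, Rps12 with 5518, Rps24 and Rpl7a. Rpl23a ranged from 9671 TPM in MAR1HI replicate 2 to 14662 in BaP replicate 1. At the other end, the paralogues Rpl10l and Rpl39l were listed at 0 in all libraries, and Rpl3l (the striated muscle form of Rpl3) and the retrogene Rps23rg1 stayed below 1 TPM. These 4 were not tested, which left 85 members. Next above them was the subunit ID Rpl26, listed at 0.967 to 5.58 TPM, whose locus a second ID shares, and then Rps19bp1 at 4.46 to 9.68 TPM.

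The members together accounted for 24.2% and 21.8% of all TPM in BaP, then 18.9% and 16.4% in MAR1HI and then 21.5% and 23.3% in MAR1INT. Both MAR1HI libraries were below the other 4, and the BaP and MAR1INT ranges overlapped. The group means were 22.98% ± 1.66 in BaP, 17.7% ± 1.78 in MAR1HI and 22.4% ± 1.33 in MAR1INT (SD, n = 2 each). An exact two-sided permutation test gave p = 0.33 for MAR1HI against BaP and for MAR1INT against MAR1HI, the smallest value that 2 libraries against 2 can give, and p = 0.667 for MAR1INT against BaP. As a share of protein-coding TPM without histones the means were 30.7%, 23.1% and 28.2%, with MAR1HI again lowest. On that scale BaP, at 31.7% and 29.77%, and MAR1INT, at 26.7% and 29.72%, did not overlap (exact permutation p = 0.33). The summed TPM of the large subunit was 1.30 to 1.40 times that of the small subunit. On single IDs both MAR1INT libraries, at 1.30, were below every other library. These sums use single IDs, so the Rps27 locus counts in the small subunit almost only in MAR1INT replicate 2. Most TPM at the Rpl26 and Rpl34 loci was under IDs outside the large subunit. The order of the libraries in this ratio thus depends on how TPM was divided between IDs, and no difference between populations is read from it. The plot of shares by library shows the lower MAR1HI values in both subunits.

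**Figure D1:**
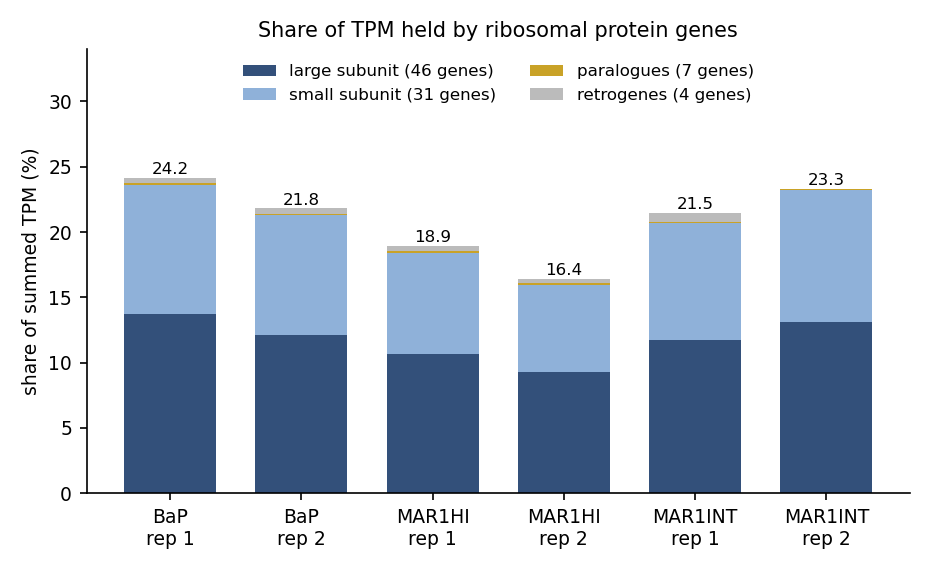
Percent of summed TPM (y axis) held by ribosomal protein genes in each of the 6 libraries (x axis), stacked by large subunit, small subunit, paralogues and retrogenes, with the total above each bar. The MAR1HI libraries, at 18.9% and 16.4%, are the lowest.

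The first comparison asked how the CD34-negative MAR1-high cells differ from the CD34-positive precursors. Nearly all members had a lower TPM in MAR1HI, by a similar small step, and a single gene, Rps2, passed the test. Fitted log2 changes are differences of log2(TPM + 1), and calls are genes with a limma adjusted p below 0.05 over the 11337 tested. Rps2 encodes a small-subunit protein at the mRNA entry channel. Its TPM was 3556 and 3409 in BaP and 1950 and 1916 in MAR1HI, a log2 change of -0.85 ± 0.16 (SE; limma adjusted p = 0.0331). The groups did not overlap and the duplicates lay close together. The call was kept under 7 of 18 alternative settings, with adjusted p from 0.00452 to 0.281, and was lost when any of the 4 libraries compared was left out. No member was called higher and 1 of 85 lower, 1.18% of the members, beside 2.49% of all genes called, 1.83% higher and 0.662% lower, so the count stood near the background.

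The shared step is seen in the medians. The median member changed by a log2 of -0.38 while the median of all genes tested was 0.24, and 81 of 85 members were below 0. In 63 of 85 members both MAR1HI libraries lay below both BaP libraries, which is 74.1% of the members beside 15.3% of all genes. In 1 member, the ID Rps27, both lay above, beside 38.2% of all genes. Unadjusted p-values were under 0.05 for 28 members, 32.9% beside 17.5% of all genes. Duplicates of members lay closer together than those of all genes, so their groups separate more easily at the same change. The median SD on the log2 scale was 0.106 beside 0.188 in BaP, 0.145 beside 0.311 in MAR1HI and 0.097 beside 0.250 in MAR1INT. Members also share the same libraries and are not independent. Among the 77 subunit genes, Rps12 had the next largest drop: 7776 and 7045 TPM in BaP against 4760 and 4171 in MAR1HI, a log2 change of -0.73 ± 0.18 that missed the threshold (limma adjusted p = 0.0653). Rpl12, at the base of the P stalk, had a log2 change of -0.68 (limma adjusted p = 0.0742). Rpl11, part of the 5S particle that can bind Mdm2, was nearly level, at 3970 and 3394 TPM in BaP and 3423 and 3756 in MAR1HI, a log2 change of -0.03. The depth of the step varied with the scaling, and its sign did not: relative to the median of all genes, members were lower by 0.63 on FPKM, 0.64 with median-of-ratios scaling and 0.21 after quantile normalization, beside 0.62 on TPM. Without MAR1HI replicate 2, the gap was 0.31. The largest values above 0 were not called: Rpl37rt at 0.86, the ID Rps27 at 0.46 and the paralogue Rpl7l1 at 0.05. Their standard errors were 1.44, 1.73 and 0.33. The fit pools the spread over all 3 groups, and that of the ID Rps27 comes from the MAR1INT duplicates, since it was at 14.7 and 12.8 TPM in BaP and 23.8 and 15.5 in MAR1HI. The retrogene Rpl32l had the lowest value, -2.71, which came from 294 TPM in BaP replicate 2 against 1.62 to 6.09 in the other 5 libraries (limma adjusted p = 0.345).

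MAR1INT was then compared with MAR1HI, the other CD34-negative population. The median member was higher in MAR1INT, and single genes moved in both directions: Rpl38, Rps9, Rps23 and Rpl37a rose most, and Rpl3, Rpl22l1, Rps20 and Rpl36al were among those that fell. Of the 85 members, 12 were called higher and 5 lower. In all, 17 members were called, 20% beside 16.8% of all genes, which is close to the background. The directions differed from it: 14.1% of members were called higher beside 2.29% of all genes, and 5.88% lower beside 14.5%. The median member changed by 0.26 and the median gene by -0.36, a gap of 0.61. That gap was 0.04 after quantile normalization, where the median gene changed by 0.11 and the median member by 0.15, and 0.28 without MAR1HI replicate 2. In 45 members, 52.9%, both MAR1INT libraries lay above both MAR1HI libraries, beside 12.7% of all genes, and in 18, 21.2%, both lay below, beside 42.2%.

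Rpl38, a large-subunit protein known from mouse embryos for its part in translating Hox mRNAs, showed the largest rise among the called members. It was at 2310 and 1480 TPM in MAR1HI and 4180 and 4623 in MAR1INT, a log2 change of 1.25 ± 0.22 (SE; limma adjusted p = 0.00593). Rps9, which lines the mRNA entry channel with Rps2 and Rps3, was at 1843 and 1379 TPM in MAR1HI and 3442 and 3580 in MAR1INT, a log2 change of 1.14 ± 0.19 (limma adjusted p = 0.00402). Rps23 went from 5421 and 4260 TPM to 9520 and 10333, a log2 change of 1.05 ± 0.18 (limma adjusted p = 0.00534). The MAR1INT libraries of all 3 genes were above every other library. Of the other 9 risers, those with log2 changes from 0.67 to 0.98 were Rpl37a, Rpl37, Rps21, Rplp1 (a P-stalk protein that helps recruit elongation factors), Rps14, Rps24, Rps29 and Rpl27a. Rps24 and Rps29 are Diamond-Blackfan anaemia genes.

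Rpl3, whose protein reaches into the peptidyl transferase centre, fell most among the called members. It was at 1524 and 1606 TPM in MAR1HI and 708 and 576 in MAR1INT, a log2 change of -1.29 ± 0.18 (limma adjusted p = 0.00183). Rpl22l1, the paralogue of Rpl22, went from 403 and 342 TPM to 164 and 192, a log2 change of -1.06 ± 0.26 (limma adjusted p = 0.0243). Rps20 was at 322 and 323 TPM in MAR1HI and 157 and 172 in MAR1INT, a log2 change of -0.97 ± 0.21 (limma adjusted p = 0.0142). Rpl36al had a log2 change of -0.83 (limma adjusted p = 0.0199). None of these 4 genes overlapped between the groups. Lower values that were not called belonged to the IDs Rps27rt (-2.22, at a shared locus) and Rpl37rt (-1.65, at 0.529 and 69.5 TPM in MAR1INT). All 17 called members kept their direction in all 18 alternative settings, of which 10 can alter a log2 value, and the calls themselves depended on MAR1HI replicate 2, the library that stood apart: without it 0 members were called, with the smallest adjusted p for Rpl3 rising to 0.0552. Without MAR1HI replicate 1 there were 6 higher and 1 lower, and without either BaP library 5 and 5. The split of higher to lower calls was 1 to 3 on FPKM and 1 to 1 with median-of-ratios scaling.

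**Figure D2:**
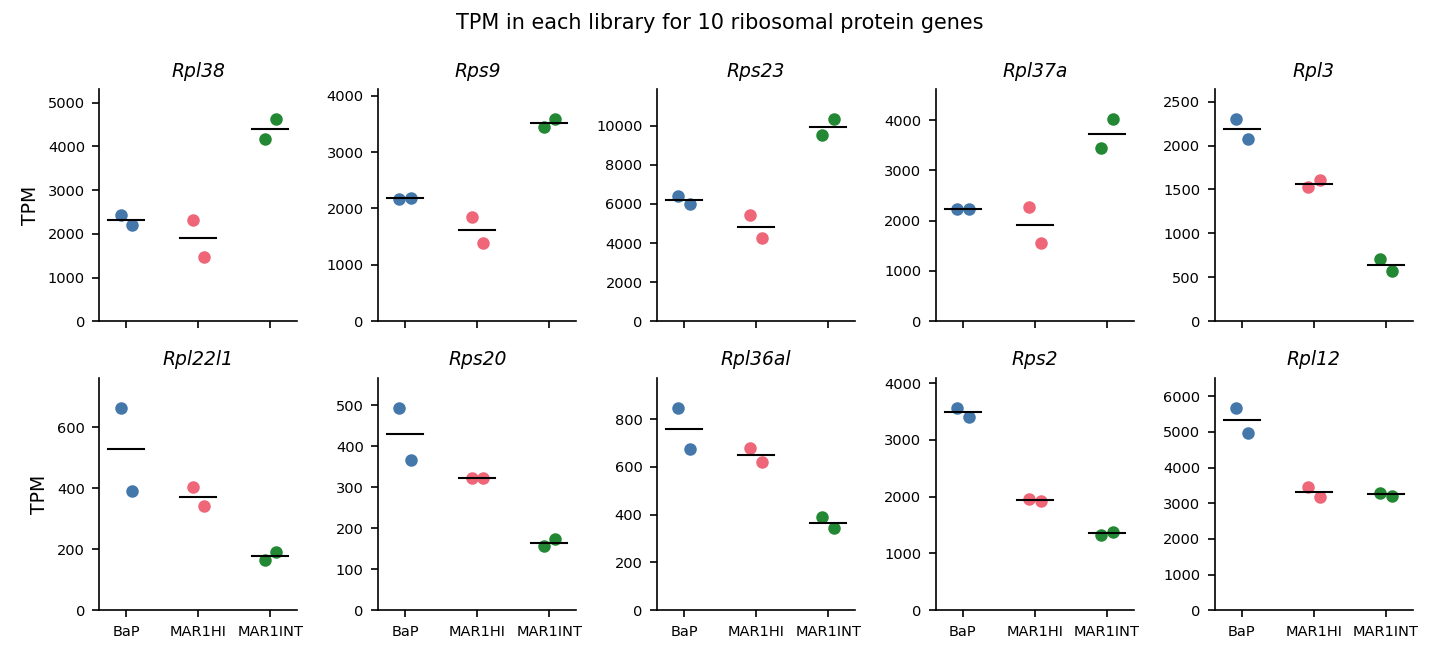
TPM (y axis, from 0) of 10 called members in BaP, MAR1HI and MAR1INT (x axis), with a point per library and a bar at the mean of 2. Rpl38, Rps9, Rps23 and Rpl37a are highest in both MAR1INT libraries, while Rpl3, Rpl22l1, Rps20, Rpl36al and Rps2 are lowest there, and Rpl12 is lower in both MAR1HI and MAR1INT than in BaP.

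Set against the CD34-positive precursors, MAR1INT cells had an overlapping share of total TPM in ribosomal protein genes, and single members moved in both directions. Rpl3, Rps2, Rps20, Rpl22l1 and Rpl36al fell by a log2 of more than 1, and Rpl38, Rpl37a, Rps9 and Rps23 rose by less than 1. Of 85 members 5 were called higher and 16 lower, 24.7% in all beside 31.5% of genes tested. By direction, 5.88% were called higher beside 11.1% of all genes, and 18.8% lower beside 20.4%, so these counts do not stand above the background. The median member changed by -0.08 and the median gene by -0.16. Groups did not overlap for 23 members higher in MAR1INT and 35 lower, 27.1% and 41.2% beside 29.7% and 39.1% of all genes.

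The largest called fall was that of Rpl3, from 2299 and 2072 TPM in BaP to 708 and 576 in MAR1INT, a log2 change of -1.77 ± 0.18 (limma adjusted p = 0.000225). MAR1HI was between them, at 1524 and 1606 TPM. Rpl22l1 was at 662 and 392 TPM in BaP and 164 and 192 in MAR1INT, a log2 change of -1.52 ± 0.26 (limma adjusted p = 0.00258). Rps2 fell from 3556 and 3409 TPM to 1318 and 1385, a log2 change of -1.36 ± 0.16 (limma adjusted p = 0.00043). Rps20 had 493 and 367 TPM in BaP and 157 and 172 in MAR1INT, also a log2 change of -1.36 (limma adjusted p = 0.00138). These 4 genes were called under all 18 alternative settings. Others called lower were Rpl36al at -1.05, Rpl36a at -0.77, Rpl10a at -0.77, Rpl12 at -0.71 and Rpsa, at the mRNA exit and also known as the laminin receptor precursor, at -0.67. A further 6, Rpl31, Rps12, Rpl35, Rpl15, Rps18 and Rps26, had log2 changes from -0.67 to -0.49. Rps18 held its call under 4 of the 18 alternative settings, Rpl15 under 7, and Rpl35 and Rps26 under 9. Rps12 held its call under 12 and Rpl31 under 13.

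Among the 5 called higher were Rpl38 at 0.92 ± 0.22 (limma adjusted p = 0.0133), Rpl37a at 0.74, Rps9 at 0.69 and Rps23 at 0.68. Each of these 4 calls held under 11 to 13 of the 18 alternative settings. With either BaP library left out, and on FPKM, 0 members were called higher, while 5, 10 and 17 were called lower. Without MAR1INT replicate 1 the count of lower calls was 9. The split of higher to lower was 0 to 6 with median-of-ratios scaling and 7 to 11 after quantile normalization. Relative to the median subunit gene of each library, a description with no test, Rpl38 was higher by 1.02 and Rpl37a by 0.84, and Rpl3 was lower, at -1.68. Over the 3 groups together, 21 of 85 members differed by limma's F test, 24.7% beside 26.6% of all genes.

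**Figure D3:**
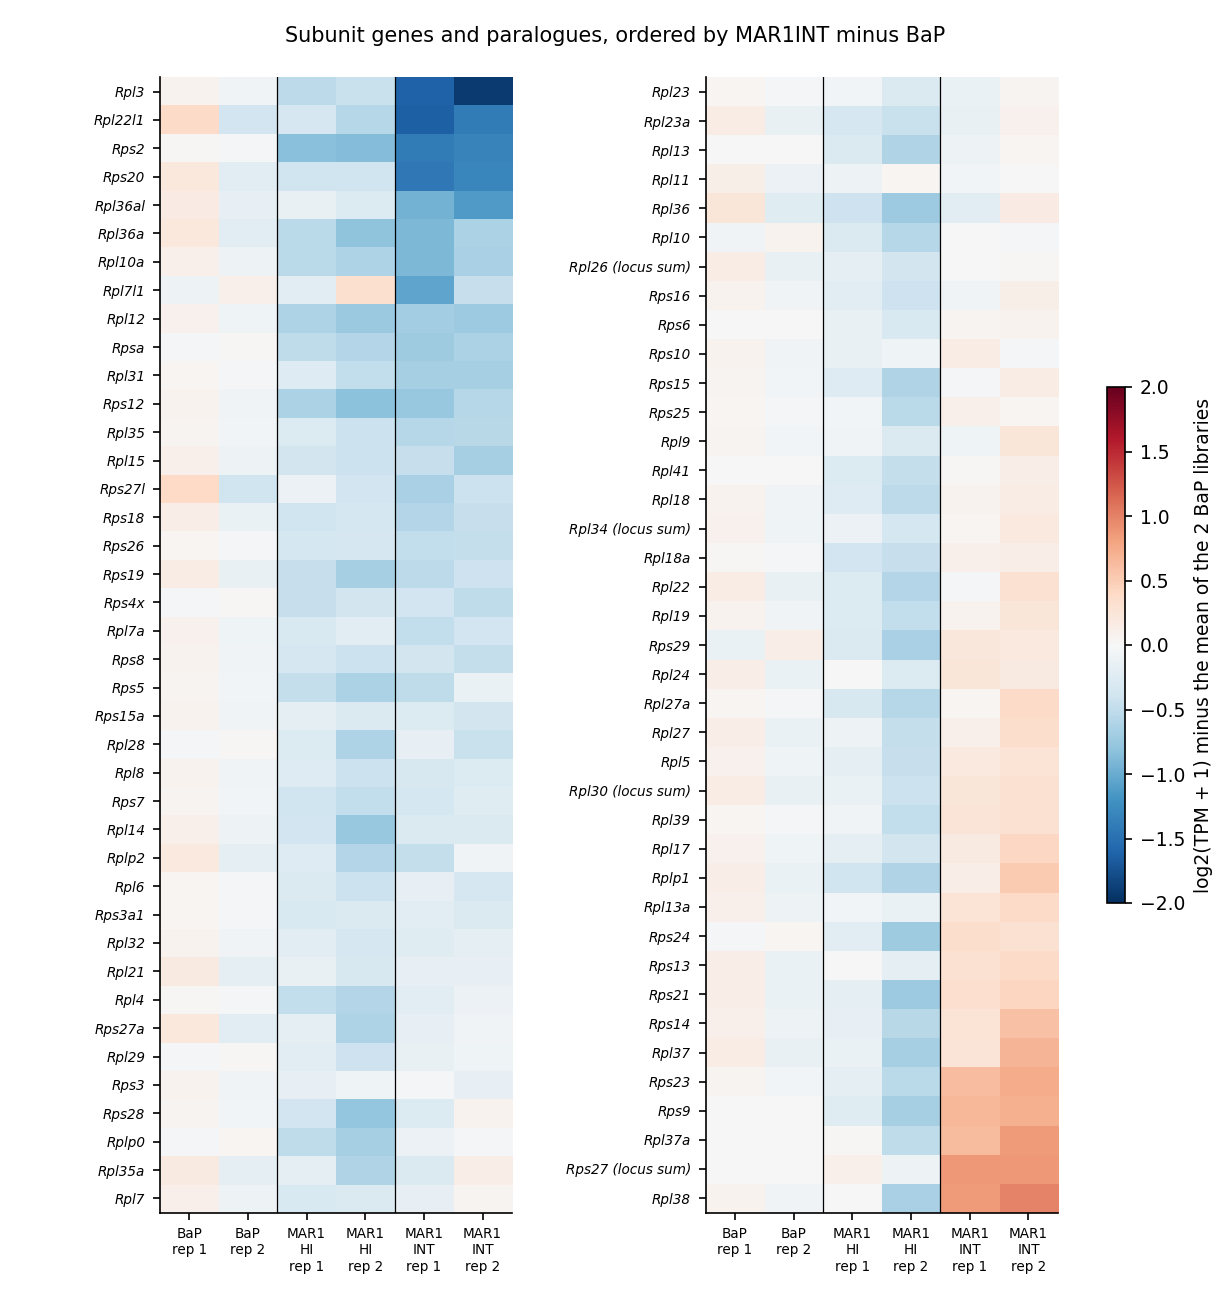
Change of tested subunit genes and paralogues in each library (columns), as log2(TPM + 1) minus the mean of the BaP libraries (colour), ordered by MAR1INT minus BaP, with the 4 shared loci summed. Most rows are blue in both MAR1HI columns, and in MAR1INT they run from Rpl3, the lowest, to Rpl38, the highest.

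Grouped by place in the ribosome, called genes were spread over several regions. The counts are small, and in MAR1INT against BaP 11.1% of all genes were called higher and 20.4% lower. At the mRNA entry and decoding site, Rps9 and Rps23 rose in MAR1INT against BaP and Rps2 fell, while Rps3 was not called (417 and 382 TPM in BaP, 387 and 356 in MAR1INT). Around the catalytic core, Rpl3 fell and Rpl4, Rpl8 and Rpl10 were not called, with log2 changes from -0.30 to -0.02. In the P stalk, Rpl12 fell against BaP, and Rplp1 rose against MAR1HI but not against BaP (0.32), while Rplp0 and Rplp2 were not called in any comparison. At the tunnel exit 2 of 7 genes, Rpl31 and Rpl35, fell against BaP and 0 rose. Of 4 genes at the mRNA exit, Rpsa and Rps26 fell against BaP. Rpl5 and Rpl11, which carry the 5S rRNA, Rps6, the S6 kinase substrate, and Rps27a, which is made as a ubiquitin fusion, were not called in any comparison. Among 15 Diamond-Blackfan anaemia genes 3 fell against BaP, with Rps26 and Rpl15 among them, which is near the share of all genes. By subunit, 2 of 46 large-subunit genes rose and 7 fell against BaP, and 3 of 31 small-subunit genes rose and 7 fell. These are 4.35% and 15.2% of the large subunit and 9.68% and 22.6% of the small, near or below the shares of all genes.

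The stretches around the transcription start of 4 genes that rose and 2 that fell are shown to set their starts side by side. Each runs 5′ to 3′ on the gene's strand from 50 bases before the annotated start to 30 from it on, with the first transcribed base at position 51. Capitals mark the longest run of C and T between 20 bases before the start and 30 after. Sequences are from RefSeq on GRCm38.p6, and all 6 genes are on the plus strand.
Rpl38, chr11:114668530-114668609: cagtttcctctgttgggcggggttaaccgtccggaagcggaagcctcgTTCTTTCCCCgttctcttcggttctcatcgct
Rps9, chr7:3703991-3704070: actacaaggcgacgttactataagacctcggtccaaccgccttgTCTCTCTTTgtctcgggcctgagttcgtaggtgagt
Rps23, chr13:90923072-90923151: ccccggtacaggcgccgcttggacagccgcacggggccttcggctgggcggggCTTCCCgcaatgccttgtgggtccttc
Rpl37a, chr1:72711210-72711289: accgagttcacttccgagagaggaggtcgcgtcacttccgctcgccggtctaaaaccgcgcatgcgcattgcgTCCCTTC
Rps2, chr17:24720013-24720092: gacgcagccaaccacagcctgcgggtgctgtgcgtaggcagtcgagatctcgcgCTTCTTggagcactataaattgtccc
Rpl22l1, chr3:28805458-28805537: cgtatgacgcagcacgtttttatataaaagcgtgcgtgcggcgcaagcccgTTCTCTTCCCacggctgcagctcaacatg
Runs of 10 bases stood at the annotated start of both Rpl38, which rose, and Rpl22l1, which fell, and runs of 6 near that of both Rps23 and Rps2. Whether these cells used the annotated starts was not tested.

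Promoters were matched for 57 of 77 subunit genes, with the first listed start of each gene. A pyrimidine run of 8 or more bases in that window was present in 29 of 57, 50.9%, beside 18.3% of 17492 protein-coding genes. Of the genes called lower in MAR1INT than BaP 6 of 11 had such a run, and of those called higher 2 of 4. In the 300 bases from 250 before to 50 after the start, searched on both strands, CGGAAG was found in 70.2% of subunit genes and 21.5% of protein-coding genes, CCATNTT in 29.8% and 15.5%, TATAAA in 8.77% and 13.3%, CACGTG in 8.77% and 7.90%, and GGGCGG in 59.6% and 46.3%. Matches of GGGCGG and CGGAAG can share bases. CGGAAG was present in 10 of the 11 called lower and 2 of the 4 called higher. A match describes the letters only.

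At 4 loci a subunit gene and a second ID were listed over the same interval and strand (at least 90% of each covered by the other), and the TPM was divided between them in ways that differed by library. At the Rps27 locus (mm10 chromosome 3, 90212667 to 90213648, minus strand), the ID Rps27 held 12.8 to 37.3 TPM in 5 libraries and 6446 in MAR1INT replicate 2. The retrogene ID Rps27rt, listed here and not at its own reference place, held 3318 to 6513 TPM in those 5 and 88.5 in the last. Neither ID alone was called in any comparison, although Rps27 had the largest log2 changes of any member, 4.62 and 5.08 in the comparisons that hold MAR1INT (limma adjusted p = 0.102 and 0.0503). The sum of both was 3593 and 3553 TPM in BaP, 3850 and 3333 for MAR1HI and 6550 and 6534 for MAR1INT. The summed locus rose in MAR1INT by a log2 of 0.87 against MAR1HI (limma adjusted p = 0.00756) and 0.87 against BaP (limma adjusted p = 0.00395). This sum was chosen after the values were seen. Summing gene IDs left the other calls of members in place, with 13 called higher against MAR1HI and 6 against BaP.

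For Rpl26 (chromosome 11, 68901566 to 68904534), nearly all TPM was under the pseudogene ID Gm15772, and the sum was 3917 to 5575 TPM. For Rpl34 (chromosome 3, 130726827 to 130730398) the ID Rpl34-ps1 held most of a sum of 3153 to 4568 TPM, while the ID Rpl34 had 173 to 417. For Rpl30 (chromosome 15, 34440508 to 34443276), the ID Rpl30 held 2388 to 5047 TPM, Gm12191 held the rest, and the sum was 3140 to 5200 TPM. None of these 3 sums was called in any comparison. Counted as loci, the members held 23.9%, 18.5% and 23.4% of TPM in BaP, MAR1HI and MAR1INT. At each of these loci the TPM was divided between IDs listed over the same interval and strand, so values of the single IDs are uncertain. What set the division was not tested.

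**Figure D4:**
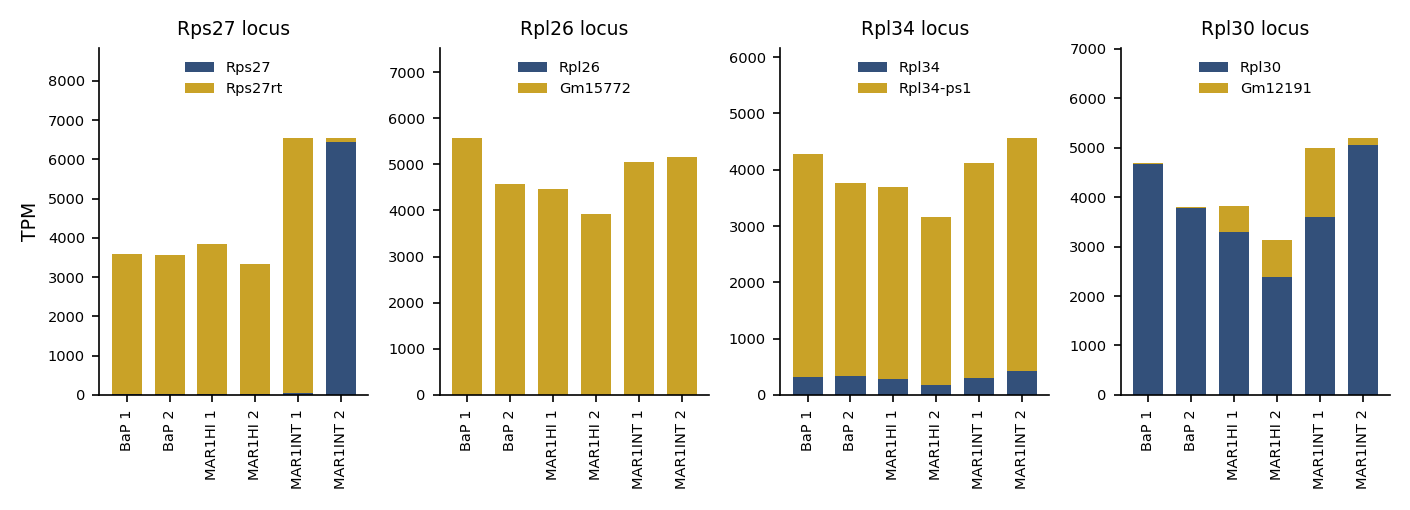
TPM (y axis, linear from 0) in the 6 libraries (x axis) at the 4 loci where 2 gene IDs share an interval, stacked by ID. At the Rps27 locus the IDs change places in MAR1INT replicate 2, while the summed height is 6550 and 6534 TPM in the MAR1INT libraries.

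Among the expressed paralogues, Rpl22l1 and Rpl36al fell in MAR1INT and Rps27l and Rpl7l1 were not called. Rpl22 is known to repress Rpl22l1. Rpl22 itself was at 243 and 198 TPM in BaP, then 181 and 145 in MAR1HI and then 216 and 270 in MAR1INT, with no call in any comparison. The ratio of Rpl22l1 to Rpl22 was 2.72 and 1.98 in BaP, 2.23 and 2.35 for MAR1HI and 0.758 and 0.711 for MAR1INT. The more abundant member of the pair was thus Rpl22l1 in the first 4 libraries and Rpl22 in both MAR1INT libraries. Their coding sequences were 67.5% identical over the alignment. Rpl36al was at 845 and 674 TPM in BaP, then 678 and 622 in MAR1HI and then 390 and 342 in MAR1INT. Rpl36a was also called lower in MAR1INT against BaP, but against MAR1HI it changed by a log2 of -0.10 and was not called. The ratio of Rpl36al to Rpl36a was 0.240 and 0.255, then 0.324 and 0.356, then 0.239 and 0.174. These coding sequences were 87.7% identical, close enough that reads may be split between them. Rps27l, a p53 target, had 563 and 321 TPM in BaP and 272 and 317 in MAR1INT, and its ratio to the Rps27 locus was 0.157 and 0.0903 in BaP and 0.0415 and 0.0485 in MAR1INT. Rpl7l1 was at 17.4 to 46.3 TPM. Rps4l, a copy of Rps4x that is not a member, was at 3.64 to 22.9 TPM and was not called.

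Coding length was weakly related to the change in MAR1INT among subunit genes. Over 74 subunit genes (without the IDs Rps27, Rpl26 and Rpl34), Pearson's r between log2 coding length and log2 change was -0.34 against MAR1HI and -0.32 against BaP, and -0.03 for MAR1HI against BaP. The points share the same libraries and are not independent. Over 10433 protein-coding genes r was 0.11, 0.12 and 0.08 in the same order. The 23 genes with up to 400 coding bases had a median log2 change of 0.48 against MAR1HI, the 29 of 405 to 588 bases 0.34, and the 22 above 600 bases 0.08. Against BaP these medians were 0.02, 0.06 and -0.27, so the shortest class was not above the middle one. The spread within each class was wide, from -0.97 (Rps20) to 1.25 (Rpl38) in the shortest.

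Introns of ribosomal protein genes carry small nucleolar RNAs (snoRNAs), which guide rRNA modification and are cut from the host's transcript. There were 33 snoRNA IDs inside 23 members, and the share of them with the sign opposite to the host differed by comparison. Against MAR1HI, 5 were called higher and 12 lower in MAR1INT, beside 2.29% and 14.5% of all genes, and 24 of 33 had the opposite sign to the host. Against BaP, 2 were called higher and 13 lower, beside 11.1% and 20.4% of all genes, and 20 of 33 had the opposite sign. In MAR1HI against BaP 0 were called by limma and 9 of 33 had the opposite sign. Every host had a log2 change below 0 there, so these 9 are simply the snoRNAs above 0. In MAR1INT against MAR1HI 60 of 77 subunit genes were above 0, while the median gene changed by -0.36. The counts of signs therefore do not measure a link between a snoRNA and its host. The snoRNAs named here were chosen after their values were seen. Snora64, inside Rps2, was at 3837 and 5142 TPM in BaP, 3951 and 1635 for MAR1HI and 9021 and 10228 for MAR1INT, a log2 change of 1.11 against BaP (limma adjusted p = 0.0382) where Rps2 fell. Snord15b, inside Rps3, had 2235 and 3638 TPM in BaP and 7849 and 8162 in MAR1INT, a log2 change of 1.49 (limma adjusted p = 0.00627). Snord16a, inside Rpl4, had 3293 and 2868 TPM in BaP against 310 and 1126 in MAR1INT, a log2 change of -2.38 (limma adjusted p = 0.0052). These features are 45 to 148 bases long, and reads of unspliced host transcripts over them cannot be told apart from the snoRNA.

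**Figure D5:**
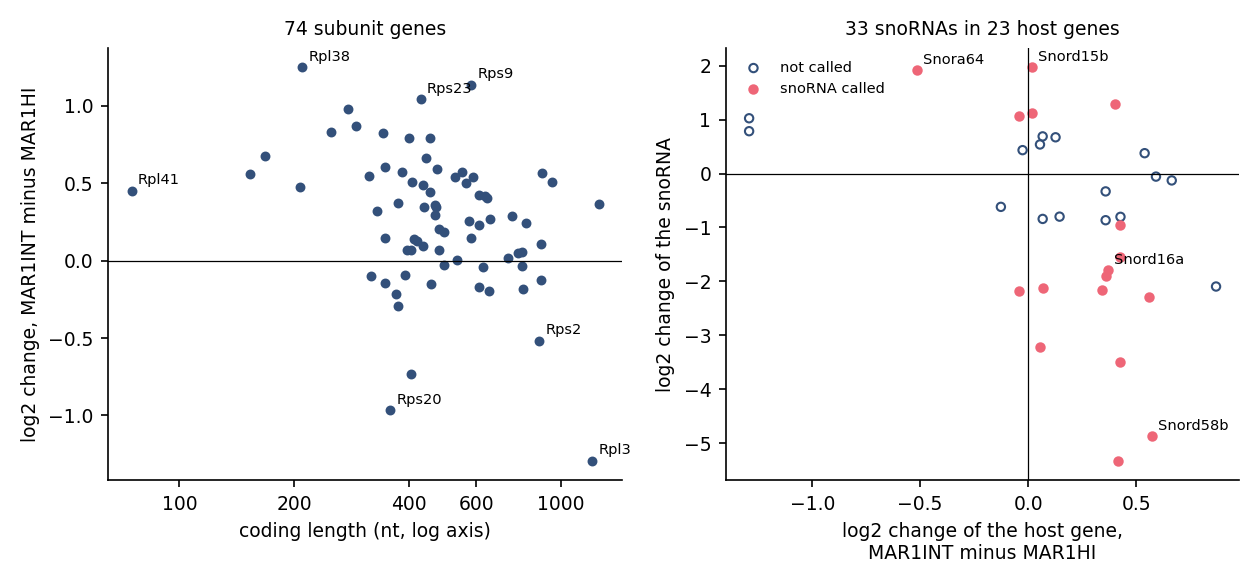
Left, log2 change in MAR1INT minus MAR1HI (y axis) against coding length in nucleotides (x axis, log scale) for 74 subunit genes. Right, log2 change of 33 snoRNAs (y axis) against that of their host genes (x axis) in the same comparison, with filled points for called snoRNAs, where 24 of 33 lie on opposite sides of 0.

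Genes around the ribosomal proteins were read from lists chosen with earlier results known. Counts in them stand beside 11.1% of all genes called higher and 20.4% lower in MAR1INT against BaP, and 2.29% and 14.5% against MAR1HI. Of the ribosome components with other symbols, Fau, the fusion that yields Rps30, was at 1727 and 1571 TPM in BaP, then 1788 and 1377 in MAR1HI and then 3219 and 3482 in MAR1INT, a log2 change of 1.02 against BaP (limma adjusted p = 0.00354). Rack1, a scaffold on the small subunit, fell by 0.49 on the log2 scale against BaP (limma adjusted p = 0.0482). Among 16 other TOP mRNAs, Tpt1 rose in MAR1INT (0.60 against BaP) and the elongation factor subunits Eef1g (-0.99) and Eef1b2 (-0.65) fell, while Eef1a1 and Eef2 were not called. The median of that list was -0.10 against BaP, beside -0.16 for all genes. Against MAR1HI, 1 of the 16 rose (Tpt1) and 1 fell (Vim).

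In the list of 14 genes that control TOP mRNAs, Mtor, Rptor and Larp1 were not called. The mTORC1 inhibitors Ddit4 and Sesn2 rose in MAR1INT against BaP. Ddit4 was at 2.15 and 1.61 TPM in BaP, 5.96 and 12.1 for MAR1HI and 27.3 and 22.1 for MAR1INT, a log2 change of 3.16 (limma adjusted p = 0.000967). Eif4ebp2, a repressor of cap-dependent translation, rose by 1.05 and the cap-binding protein Eif4e fell by 1.75 on the log2 scale. Of 11 chaperones and importers of ribosomal proteins, 7 fell against BaP, beside 20.4% of all genes, and 0 rose, with a list median of -1.30 beside -0.16 for all genes. Ipo5, an importin, was at 116 and 106 TPM in BaP, then 57.5 and 68.4 in MAR1HI and then 29.4 and 22.5 in MAR1INT, a log2 change of -2.06 (limma adjusted p = 0.000541). Grwd1, the chaperone of Rpl3, was at 4.87 and 5.15 TPM in BaP and listed at 0 in both MAR1INT libraries. Heatr3, the importer of Rpl5, and Ltv1, an assembly factor of the small subunit, fell with log2 changes of -2.28 and -1.79. Of 10 tested RNA polymerase I genes, Polr1b (-1.96) and Polr1a (-1.54) fell against BaP and 0 rose, a share near that of all genes.

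In the Myc network, Myc rose against MAR1HI by 1.34 (limma adjusted p = 0.0109), from 28.0 and 25.1 TPM to 79.9 and 58.5, and was not called against BaP, at 48.4 and 47.7 TPM. Its antagonist Mxd1 rose in MAR1HI against BaP (1.73) and in MAR1INT against BaP (2.26), Max rose in the latter (1.40), and Mxd3 fell to 0.581 and 0 TPM in MAR1INT. Of 6 genes of the p53 checkpoint that ribosomal stress acts on, Bbc3 rose (1.82) and Cdkn1a fell (2.38 to 3.29 TPM in BaP, listed at 0 in both MAR1INT libraries) against BaP, and Mdm2 and Trp53 were not called. In the same comparison 8 of 8 cycling markers fell (median log2 change -3.04), and their part in the results on ribosomal protein genes was not tested.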

How the data were processed

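Per the labels' protocols, TRIzol LS was used for RNA and a direct-capture RNA kit for the libraries, so a gene's level also depends on how well it is captured. Per the submitters' processing notes, Trimmomatic, HISAT2, StringTie and the build mm10 were used, and versions, options and annotation are not given in the sources used here. Per the file headers, the authors' tables hold coverage (a signal of mean depth per base), FPKM and TPM for each gene, and TPM was analysed here. No counts were used, so no counting interval was given. Gene IDs were joined to symbols from RefSeq (GRCm38.p6), and 24462 of 24532 matched. Coding lengths, from a principal transcript of each gene, came from GENCODE.

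Genes with at least 1 TPM in 2 or more of 6 libraries (11337, of which 85 members) entered limma 3.58.1 (R 4.3.3) on the log2(TPM + 1) scale, with a trend and 1 term per group, which left 3 residual degrees of freedom (prior, median 6.39). The 3 two-sided contrasts and an F test were adjusted by Benjamini-Hochberg over all genes and called at 0.05. A change on this scale is understated for low genes. The fit was also run on simulated data to check its estimates, which does not bear on the calls made here. The members and all gene lists were chosen with earlier results of these data known. Results of some single genes are not reported here, though counts include them. Genes were named by rule: the up to 10 largest called changes per direction and contrast (or the 3 largest where fewer than 3 were called), the 5 most and 5 least abundant members, the role lists and paralogues, up to 4 called genes per direction of each context list, and the 3 members farthest above and below the median member. Alternatives were other scalings, filters and pseudocounts, a replicate block and leaving out each library; summing IDs at a locus and centring on the median subunit gene were chosen after seeing the data. The labels used here do not say whether replicate numbers pair libraries. Duplicate differences correlated between groups by 0.15, -0.09 and -0.06 across genes, which cannot settle it. Python 3.11.15, pandas 2.3.3, numpy 2.4.6, matplotlib 3.10.9 and Biopython 1.88 were used.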

Additional observations from a re-analysis of the deposited data

How the results depend on the processing

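All members called in a comparison kept their direction under all 18 alternatives, while the counts of calls moved. In each comparison 10 of the 18 altered the log2 values of the called members. The other 8 (the filters, replicate block, robust moderation, only the groups compared, summed loci and leaving out a library of the third group) altered only their test. Summing loci did change log2 values at the 4 shared loci, where no single ID of a member was called. For MAR1HI against BaP, where 1 member was called lower, the count was 0 on FPKM, with median-of-ratios scaling, without a filter, with a pseudocount of 0.1, after quantile normalization and with a replicate block. It was 3 with a mean of 5 TPM, for protein-coding genes without histones and with robust moderation, and 5 with only the groups compared. Leaving out a library gave 0 to 5. The median of -0.38 was -0.60 on FPKM, -0.68 with median-of-ratios scaling and -0.18 after quantile normalization, and -0.49 to -0.26 without a library. The share difference of -5.32 points was -7.61 among protein-coding genes and -6.58 to -4.06 without a library.

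For MAR1INT against MAR1HI, the 12 higher calls became 1 on FPKM, 1 with median-of-ratios scaling, 0 without a filter, 5 with only the groups compared, and 0 to 15 without a library. The 5 lower calls became 3, 1 and 1 under the first 3 of these, 11 when centred on the median subunit gene, and 0 to 6 without a library. The median of 0.26 was 0.54 with median-of-ratios scaling and 0.13 to 0.36 without a library, and the share difference was 3.47 to 6.00 points.

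For MAR1INT against BaP, the 5 higher calls became 0 on FPKM, with median-of-ratios scaling and without a filter, 3 among protein-coding genes, 9 when centred, and 0 to 6 without a library. The 16 lower calls became 6 with median-of-ratios scaling, 8 without a filter and 5 to 15 without a library. The median of -0.08 was -0.32 on FPKM, turned to 0.01 (0.0063) after quantile normalization, and was -0.16 to -0.02 without a library. The share difference of -0.585 points was -2.52 among protein-coding genes and ran from -1.76 to 0.590 without a library, turning positive without BaP replicate 1 (0.590) and without MAR1INT replicate 1 (0.353). The 21 members that differed by the F test became 9 on FPKM, 4 with median-of-ratios scaling, 4 without a filter, 13 with the replicate block and 9 to 27 without a library. The cause of these moves was not tested.

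With the replicate block, 0 and 0, 9 and 5, and 5 and 13 members were called higher and lower in the 3 comparisons in order. Duplicate differences correlated weakly between groups (0.15, -0.09 and -0.06), which cannot exclude a pairing. The block was kept as an alternative only. Among single genes, Rpl7l1 in MAR1HI against BaP turned to -0.17 on FPKM, -0.24 with median-of-ratios scaling, -0.26 after quantile normalization, -0.05 without BaP replicate 1 and -0.21 without MAR1HI replicate 2. Without single libraries its range was -0.21 to 0.31. In the same comparison Rpl37rt ran from -0.40 to 2.12 and Rpl32l from -5.53 to 0.10, turning sign without BaP replicate 1 and without BaP replicate 2. In MAR1INT against MAR1HI, Rpl37rt ran from -4.42 to 1.11, turning sign without MAR1INT replicate 1. Rps27rt ran up to 0.87 in both MAR1INT comparisons, without MAR1INT replicate 2, and down to -5.32 (against MAR1HI) and -5.31 (against BaP) without MAR1INT replicate 1. The centred fit, chosen after seeing the data, had 548 prior degrees of freedom. It thus set the variance of each gene almost wholly by the trend with its mean level. Leaving out a MAR1INT library gave an infinite prior, and a lone library is assumed to vary like the other groups. The tables give no read counts, and the precision of low values is unknown.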
